A study of Homo sapiens with 8 samples.

Results

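STC1 and STC2 are the 2 stanniocalcin genes of the human genome, and both were read from a table of counts for 59385 gene symbols in 8 RNA libraries. They were taken by name, as 2 of 16228 genes that passed a filter on low counts, and both passed it. They were selected on measured values: the choice rested on the level of STC1 in polysomal RNA of knockdown cells against scramble cells. That difference, and every value built on it, is therefore given as a description with no test, and for STC2 the knockdown comparisons that hold polysomal RNA are treated in the same way. The polysome to total ratio within one hairpin is tested for STC2, whose level was not used to choose it, and not for STC1.

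The libraries came from IHCF, a line of immortalized human cardiac fibroblasts, cells of the connective tissue of the heart. There were 4 groups of 2 libraries each, namely polysomal RNA from cells with an shRNA against EIF4G2, polysomal RNA from cells with a scramble shRNA, total RNA from the EIF4G2 knockdown cells and total RNA from the scramble cells. Both hairpins were delivered by lentivirus. All cells, scramble included, went through serum withdrawal of 6 h or longer and then received TGF-beta for 24 h, so no group shows cells without TGF-beta. No second hairpin and no rescue is named, and off-target effects of the hairpin cannot be told apart from those of losing EIF4G2. The design text of the series mentions triplicates, and 2 libraries a group were analysed here. The labels number the libraries as biological replicates without naming cultures, and the p-values describe only the spread among them, part of which may be technical.

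Stanniocalcins are secreted, disulfide-linked glycoproteins, first known from fish as hormones that lower calcium uptake. In mammals they act mainly near the cells that make them, and both bind and inhibit the pappalysins PAPPA and PAPPA2, proteases that cut IGF-binding proteins and so free insulin-like growth factors. STC2 is a target of the ATF4 branch of the cellular stress response, and both genes are known to respond to low oxygen. EIF4G2 (DAP5) resembles the scaffold protein EIF4G1 of translation initiation but has no binding site for eIF4E, the cap-binding protein, and it has been tied to translation of mRNAs with upstream reading frames. The question a comparison of polysomal and total RNA addresses is whether the place of an mRNA among ribosomes shifts apart from its level.

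The start of the STC2 reading frame is shown because the STC2 mRNA is the one of the pair whose annotated leader holds upstream ATG triplets, and this is the start codon they precede. It spans chr5:173328170-173328199 on the minus strand of GRCh38 in the GENCODE 29 transcript, with 6 bases before the start codon and 24 from it, and the capitals mark the start codon.
STC2 start: agaaccATGtgtgccgagcggctgggccag

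The gene models of the 2 mRNAs differ most in that leader, the stretch before the coding sequence. STC1 (ENSG00000159167.11) lies on chromosome 8 of GRCh38 from 23841915 to 23854807 and STC2 (ENSG00000113739.10) on chromosome 5 from 173314713 to 173329503, both on the minus strand, with 4 exons in the transcript used for each. No other gene of the GENCODE annotation overlaps either of them. The STC1 transcript has 3883 bases with a leader of 284 bases and 0 ATG triplets in that leader. The STC2 transcript has 5353 bases with a leader of 1310 bases, longer than that of 98.8% of 12651 protein-coding tested genes. That leader holds 11 upstream ATG triplets on the sense strand, each followed by a stop codon in frame before the main start codon. From the start that RefSeq gives, the STC2 leader has 221 bases and 1 upstream ATG, also closed by a stop in frame, so the STC2 count depends on the annotated start. For STC1 the RefSeq start gives 283 bases and still 0. Over those 12651 genes, 51.1% have at least 1 upstream ATG, the median is 1, and the median leader has 187 bases. An ATG match describes letters, and whether ribosomes use it was not measured.

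The libraries held 18043714 to 24590030 counts, polysomal and total alike, and levels are CPM, the counts scaled by library total and TMM factor. EIF4G2 itself stood at 244 and 334.6 CPM in knockdown and 875.3 and 877 CPM in scramble polysomal libraries, and at 293.4 and 327.2 CPM in knockdown and 793.6 and 785.2 CPM in scramble total libraries. Its log2 fold change was −1.60 ± 0.18 (SE) in polysomal RNA (edgeR adjusted p = 0.0276, where 0.0123% of 16228 genes were called, and 0.102 to 0.224 without any 1 of 5 of the 8 libraries) and −1.35 ± 0.18 in total RNA (edgeR adjusted p = 0.0504, just above the threshold of 0.05; DESeq2 adjusted p = 3.11e-10). The 14 fibroblast markers summed to 6660 to 7450 CPM in knockdown and 6760 to 7380 CPM in scramble polysomal libraries, and to 7020 to 7150 CPM in knockdown and 6610 to 6800 CPM in scramble total libraries. The 11 cardiomyocyte markers summed to at most 7.69 CPM and the 8 leukocyte markers to at most 7.9 CPM in any library, with MYH6, MYH7 and CD3E at 0 counts in all. Of the 12 fibroblast markers tested, 9 had a log2 fold change below 0 in polysomal RNA (median −0.48) and 5 in total RNA (median 0.03). COL1A1 (10572 to 128999 counts) and VIM (29253 to 87866 counts) were the most abundant fibroblast markers. DCN (0 to 8 counts), FAP (0 to 10) and PDGFRA (5 to 53) were low. Mural markers summed to 78.7 to 94.9 CPM in knockdown and 107 to 143 CPM in scramble polysomal libraries, and to 385 to 443 CPM in knockdown and 462 to 480 CPM in scramble total libraries. Endothelial markers summed to 134 to 142 CPM in knockdown and 116 to 132 CPM in scramble polysomal libraries, and to 48.2 to 58.7 CPM in knockdown and 44.1 to 49.6 CPM in scramble total libraries. The 8 epithelial markers summed in polysomal RNA to 2240 to 2270 CPM in knockdown and 3130 to 3200 CPM in scramble libraries. In total RNA they summed to 1170 to 1420 CPM in knockdown and 1370 to 1390 CPM in scramble libraries. KRT8 (14227 to 30535 counts) and KRT18 (10389 to 28354 counts) were the most abundant of them, while ESRP1 and GRHL2 had 0 counts. The part of these mural, endothelial and epithelial differences in the stanniocalcin values was not tested. The share of mitochondrially encoded mRNA was 7.12% in replicate 1 of the scramble polysomes against 14.5 to 17.5% in the other 3 polysomal libraries, and that library stands apart in this.

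STC2 was by far the more abundant mRNA of the pair. Per kilobase of transcript STC2 stood at 65.2 and 91.2 CPM in knockdown and 72.2 and 114 CPM in scramble polysomal libraries, and at 136 and 131 CPM in knockdown and 101 and 104 CPM in scramble total libraries. STC1 per kilobase stood at 2.77 and 2.82 CPM in knockdown and 0.782 and 0.597 CPM in scramble polysomal libraries, and at 6.41 and 7.59 CPM in knockdown and 4.7 and 4.56 CPM in scramble total libraries. The 2 genes did not overlap on this scale in any group.

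**Figure D1:**
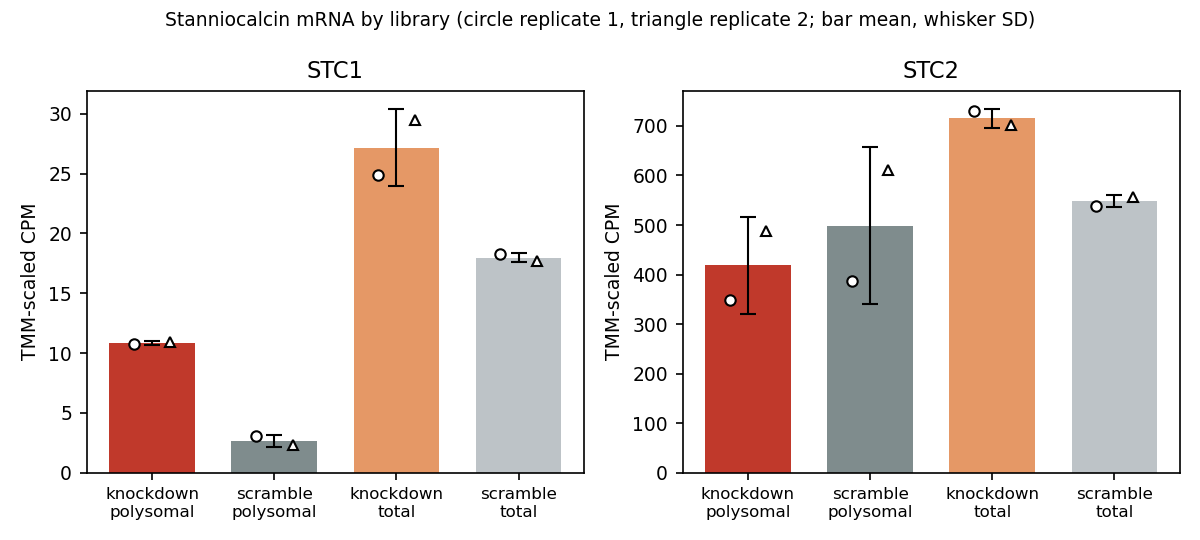
TMM-scaled CPM (vertical axes, from 0) of STC1 and STC2 in knockdown polysomal, scramble polysomal, knockdown total and scramble total libraries; bars are means, whiskers SD of 2 libraries, circles replicate 1 and triangles replicate 2. Both STC1 knockdown libraries lie above both scramble libraries in each fraction, while the STC2 polysomal libraries of the hairpins overlap.

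STC1, which inhibits the pappalysins and is induced by low oxygen, had 159 and 129 counts in knockdown and 56 and 39 counts in scramble polysomal libraries. These came to 10.74 and 10.96 CPM in knockdown and 3.035 and 2.317 CPM in scramble libraries, the difference that chose the gene. The fitted log2 fold change was 2.01 ± 0.23 (SE), a 4.04-fold higher level (10.9 ± 0.156 against 2.68 ± 0.507 CPM, SD, n = 2 each). Among the 16228 genes it stood at rank 385 from the top. Knockdown and scramble libraries did not overlap, which was so on the higher side for 15.5% of tested genes. Without scramble polysome replicate 2, the library with fewest STC1 counts, the log2 fold change was 1.77. Fitted on the polysomal libraries alone it was 2.02 with a wider SE of 0.40. The biological coefficient of variation was 0.246 in that fit, against 0.181 with both fractions. In bulk RNA, fewer cells making an mRNA and less of it per cell cannot be told apart.

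In total RNA, libraries that the choice of STC1 did not rest on, STC1 had 792 and 894 counts in knockdown and 546 and 474 counts in scramble cells. Both knockdown libraries, at 24.88 and 29.47 CPM, lay above both scramble libraries, at 18.24 and 17.71 CPM. The log2 fold change was 0.60 ± 0.20 (SE), a 1.51-fold higher mean (27.2 ± 3.24 against 17.97 ± 0.371 CPM, SD, n = 2 each), and it did not pass the test (edgeR adjusted p = 1, unadjusted p = 0.0111; DESeq2 adjusted p = 0.661). Non-overlap on the higher side held for 24.8% of tested genes in this comparison. edgeR called 0 genes in total RNA (0% of 16228, with 598 genes or 3.68% at an unadjusted p under 0.05, of which 2.66% higher and 1.02% lower), and DESeq2 called 26 of 8362 with an adjusted p (0.311%). Fitted on the 4 total libraries alone, whose biological coefficient of variation was 0.112 against 0.181 for all 8, STC1 had an edgeR adjusted p = 0.207 with a log2 fold change of 0.58. The total and polysomal libraries share no library, but the labels do not say whether they share cultures.

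The STC1 level in polysomes relative to total RNA lay below the median of all genes under both hairpins, and further below it in scramble cells. Mean polysomal CPM was 39.9% of mean total CPM in knockdown cells and 14.9% in scramble cells. The fitted log2 ratios of polysomal to total RNA were −1.32 ± 0.20 in knockdown and −2.74 ± 0.23 in scramble cells (SE), and in each case both polysomal libraries lay below both total libraries, as was so for 44.9% of genes in knockdown and 46.1% in scramble cells. In knockdown cells 27.7% of tested genes had a lower ratio than STC1, and in scramble cells 10% did. The median over all tested genes was −0.164 in knockdown and −0.166 in scramble cells. The difference of the log2 ratios between knockdown and scramble was 1.42 ± 0.30, larger than in 95.7% of genes. It includes the polysomal values that chose the gene and is given with no test. As each library is scaled to its own total, a polysomal level says how the mRNA stands among others there, and the number of ribosome-bound copies in a cell was not measured.

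STC2, an ATF4 target, had 23209 and 21301 counts in knockdown and 16136 and 14882 counts in scramble total libraries. Both knockdown libraries, at 729.1 and 702.1 CPM, lay above both scramble libraries, at 538.9 and 556 CPM, as was so for 24.8% of tested genes. The means were 715.6 ± 19.1 and 547.5 ± 12.1 CPM (SD, n = 2 each), and the log2 fold change was 0.39 ± 0.23 (SE), or 1.31-fold. It did not pass the test over all genes (edgeR adjusted p = 1, unadjusted p = 0.121; DESeq2 adjusted p = 0.958). With the 4 total libraries alone the unadjusted p was 0.00758 and the edgeR adjusted p = 0.264, with a log2 fold change of 0.37. Over fits without each library in turn the log2 fold change stayed between 0.36 and 0.41.

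In polysomal RNA STC2 had 349 and 488.2 CPM in knockdown and 386.3 and 611.6 CPM in scramble libraries. The groups overlapped, and in both the library of replicate 1 was the lower one. The means were 418.6 ± 98.4 and 498.9 ± 159 CPM (SD, n = 2 each), with a log2 fold change of −0.25 ± 0.23 (SE) that was 0.05 at its highest and −0.57 at its lowest over fits without each library in turn. The 2 stanniocalcin mRNAs had log2 fold changes of opposite sign in polysomal RNA and of the same sign in total RNA, with the sign of STC2 in polysomal RNA not fixed by these libraries. No test of the difference between the 2 genes was made.

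**Figure D2:**
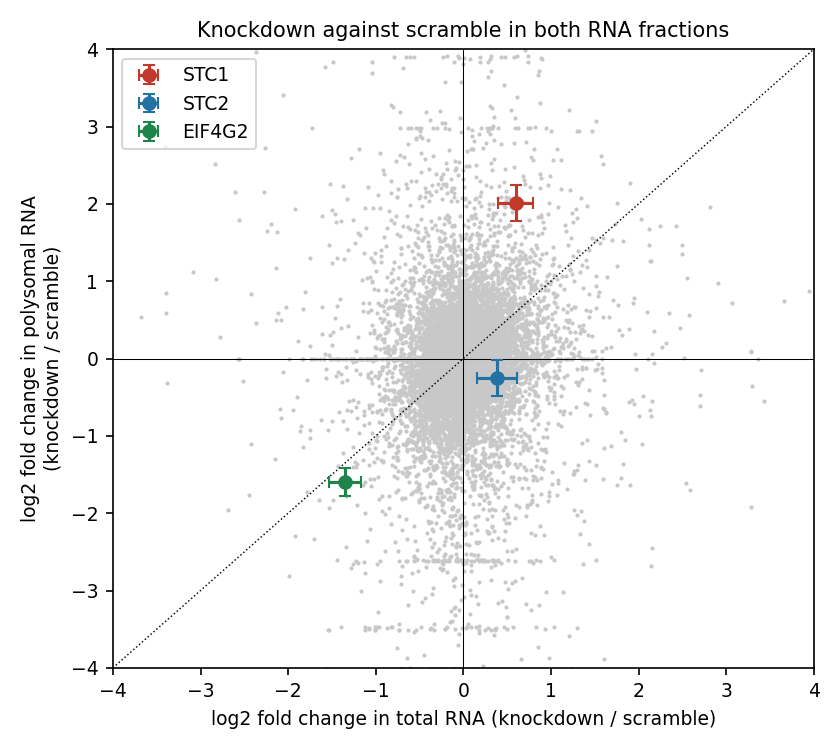
Log2 fold change of knockdown over scramble in total RNA (horizontal axis) and in polysomal RNA (vertical axis) for each tested gene in grey, with STC1, STC2 and EIF4G2 in colour and whiskers of 1 SE; the dotted line marks equal values, and 567 genes past the axis limits are not drawn. STC1 lies at 0.60 and 2.01, STC2 at 0.39 and −0.25, and EIF4G2 at −1.35 and −1.60.

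The place of STC2 in polysomes was tested within each hairpin. Both knockdown polysomal libraries (349 and 488.2 CPM) lay below both knockdown total libraries (729.1 and 702.1 CPM), and STC2 fell in polysomal against total RNA of knockdown cells, with a log2 ratio of −0.77 ± 0.23 (SE; edgeR adjusted p = 0.0131, DESeq2 adjusted p = 0.000726). edgeR called a lower level in polysomes for 34.1% of tested genes in that comparison, and DESeq2 called 62.4% in either direction, so such a call is common. Non-overlap on the lower side held for 44.9% of tested genes. The call was lost without knockdown total replicate 1 (−0.77, edgeR adjusted p = 0.0533) or knockdown polysome replicate 1 (−0.65, edgeR adjusted p = 0.0557). In scramble cells the polysomal libraries (386.3 and 611.6 CPM) overlapped the total ones (538.9 and 556 CPM), with a log2 ratio of −0.13 ± 0.23 (edgeR adjusted p = 0.629, where 33.7% of genes were called lower), which was 0.05 without scramble polysome replicate 1. Mean polysomal CPM of STC2 was 58.5% of mean total CPM in knockdown and 91.1% in scramble cells. The difference of the log2 ratios between knockdown and scramble was −0.64 ± 0.32, with 15.1% of genes lower, and is not tested because it holds the polysomal comparison. Scaled by library totals alone, which moved the median of all genes by −1.06 in knockdown and −0.998 in scramble cells, the STC2 log2 ratios were −1.84 and −1.15 and edgeR called both lower, so the baseline of these ratios rests on the scaling.

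The ratio of the 2 genes within a library needs no scaling between libraries. In polysomal RNA there were 32.5 and 44.6 STC2 counts for each STC1 count in knockdown libraries and 127 and 264 in scramble libraries. In total RNA there were 29.3 and 23.8 in knockdown libraries and 29.6 and 31.4 in scramble libraries. The scramble polysomal libraries stood apart from the other 6, which ran from 23.8 to 44.6. The knockdown polysomal ratios lay close to those of total RNA, although both remained above them. As the polysomal STC1 counts chose the gene, these ratios are a description.

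**Figure D3:**
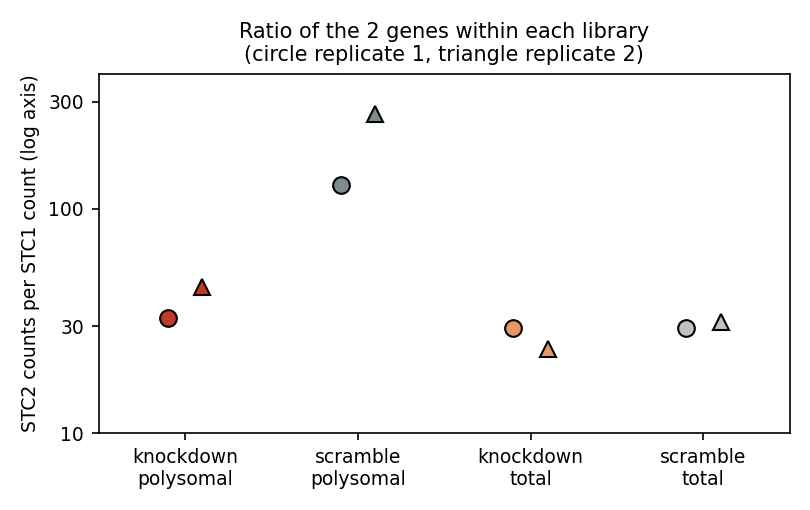
STC2 counts per STC1 count in each library (vertical axis, log scale) for knockdown polysomal, scramble polysomal, knockdown total and scramble total RNA; circles are replicate 1 and triangles replicate 2. The scramble polysomal libraries lie at 127 and 264 and the other 6 libraries at 23.8 to 44.6.

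Of the proteins that stanniocalcins act on, the pappalysin PAPPA was hardly measurable. It had 24 and 21 counts in knockdown and 36 and 14 counts in scramble total libraries, and 10 and 10 against 0 and 5 counts in the polysomal ones. PAPPA2 had 0 to 11 counts in any library and was not tested, nor were the growth factors IGF1 and IGF2, with at most 6 and 1 counts. The substrates were abundant. IGFBP4, the main IGF-binding protein cut by PAPPA, stood at 890.8 and 833.3 CPM in knockdown and 569.3 and 723.7 CPM in scramble polysomal libraries, and at 834.3 and 708.8 against 678.5 and 672.5 CPM in total RNA. Its groups did not overlap in either fraction, with log2 fold changes of 0.42 ± 0.18 and 0.19 ± 0.18 (edgeR adjusted p = 0.354 and 1). Of all tested genes, 15.5% were higher without overlap in polysomal RNA, 24.8% in total RNA and 5.68% in both. IGFBP5, also cut by pappalysins, was far lower in polysomal RNA (39.5 ± 7.34 CPM in knockdown and 37.6 ± 7.13 CPM in scramble cells) than in total RNA (314.9 ± 57.4 and 255 ± 3.69 CPM), under both hairpins (SD, n = 2 each).

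Over the pappalysin and IGF list, 13 of 19 genes were tested, with 6 above and 7 below 0 in polysomal RNA (median log2 fold change −0.03, against −0.01 over all tested genes) and 7 above and 6 below in total RNA (median 0.015, against 0.0186). The polysomal median rests on all 4 polysomal libraries, as it was −0.23 or −0.43 without knockdown replicate 1 or 2 and −0.30 or −0.33 without scramble replicate 1 or 2. edgeR called 0 members in either fraction. At an unadjusted p under 0.05 there were 1 higher and 6 lower members in polysomal RNA. There 13.3% of all genes reached that level (5.37% higher and 7.89% lower). In total RNA 1 of each reached it, against 2.66% higher and 1.02% lower of all genes. DESeq2 called 2 lower members in polysomal RNA and 0 in total RNA, where it called 1.42% and 0.311% of genes. The 2 were IGF2R, the receptor that clears IGF2, at 3.72 ± 0.867 CPM in knockdown and 8.96 ± 1.58 CPM in scramble polysomes (DESeq2 adjusted p = 0.00447), and IGFBP2, at 24.4 ± 1.27 against 44.8 ± 13.7 CPM (DESeq2 adjusted p = 0.0338; SD, n = 2 each). IGFBP3, the main carrier of IGFs in blood, stood at 47.1 ± 1.77 CPM in knockdown and 27.1 ± 2.14 CPM in scramble total RNA (edgeR adjusted p = 1). In polysomal RNA IGFBP3 stood at 132.4 ± 49.8 and 134.7 ± 36.4 CPM.

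Genes of the stress response, to which STC2 belongs, stood mostly above 0 in total RNA and not in polysomal RNA. Of 37 listed genes 36 were tested. In total RNA 28 lay above and 8 below 0, where 52.8% of all genes lay above, with a median log2 fold change of 0.21 against 0.02 over all genes. In polysomal RNA 18 lay above and 18 below, where 45.9% of all genes lay above, with a median of 0.0013 against −0.01. The difference of polysomal and total fold changes was below 0 for 28 of the 36 and above 0 for 8 (22.2%), where 44.1% of all genes lay above. edgeR called 0 members in either fraction, with 9 higher and 0 lower at an unadjusted p under 0.05 in total RNA, against 2.66% higher and 1.02% lower of all genes. In polysomal RNA 1 of each reached that level, against 5.37% and 7.89% of all genes. DESeq2 likewise called 0 members in both. ATF4, the transcription factor that drives the response, stood at 1318 and 1362 CPM in knockdown and 1002 and 1000 CPM in scramble polysomes, and at 339.3 and 270 against 213.9 and 220.7 CPM in total RNA. The ATF4 log2 fold changes were 0.42 ± 0.17 and 0.49 ± 0.17 (edgeR adjusted p = 0.323 and 1). Its groups did not overlap in either fraction, which was so on the higher side for 5.68% of all tested genes.

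The stress gene CHAC1, which degrades glutathione, had 7.54 and 7.61 CPM in knockdown and 3.34 and 4.71 CPM in scramble total libraries, and 38.8 and 40.7 against 52.4 and 40.8 CPM in polysomal ones. SLC7A11, the cystine transporter, stood at 10.1 ± 0.185 CPM in knockdown and 4.13 ± 0.396 CPM in scramble total RNA and at 8.29 ± 2.46 and 6.89 ± 2.44 CPM in polysomal RNA (SD, n = 2 each). CEBPB, a transcription factor, and PHGDH, the entry enzyme of serine synthesis, had log2 fold changes of 0.52 and 0.48 in total RNA and 0.04 and −0.06 in polysomal RNA. None of these 4 passed edgeR's test in total RNA (adjusted p = 0.775 for CHAC1 and SLC7A11 and 1 for CEBPB and PHGDH). DESeq2 adjusted p were 0.101 for CHAC1, 0.29 for CEBPB and 0.163 for PHGDH, and DESeq2 gave none for SLC7A11.

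Hypoxia genes, the other group in which both stanniocalcins are known, gave 17 of 38 members above 0 in polysomal RNA (median log2 fold change −0.03; 45.9% of all genes above 0) and 23 of 38 in total RNA (median 0.09; 52.8% of all genes). HIF1A, the oxygen-regulated transcription factor, stood at 104.4 ± 12.2 CPM in knockdown and 105.9 ± 5.46 CPM in scramble polysomes, and at 268.2 ± 31.9 against 298.6 ± 8.01 CPM in total RNA (SD, n = 2 each). edgeR called 0 members, with 5 higher and 1 lower at an unadjusted p under 0.05 in total RNA (2.66% and 1.02% of all genes) and 2 higher and 5 lower in polysomal RNA (5.37% and 7.89%). DESeq2, which called 0.311% of genes in total and 1.42% in polysomal RNA, called VEGFA and ANGPTL4 higher in total RNA, and in polysomal RNA it called MXI1, a repressor of MYC activity, higher and P4HA2, a collagen prolyl hydroxylase, lower. VEGFA, the vascular growth factor, stood at 90.8 and 105 CPM in knockdown and 51.5 and 54.3 CPM in scramble total libraries (DESeq2 adjusted p = 0.0021), but at 26.4 and 20.1 against 22.2 and 22.5 CPM in polysomal ones. MXI1 stood at 32.3 and 23.5 CPM in knockdown and 12.9 and 13 CPM in scramble polysomes, the side on which STC1 lay.

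Of 33 listed calcium and phosphate genes 27 were tested. In polysomal RNA 15 lay above and 12 below 0 (median log2 fold change 0.07), where 45.9% of all genes lay above. In total RNA 13 lay above and 14 below 0 (median −0.04), where 52.8% of all genes lay above. edgeR called 0 members in either fraction, with 4 higher and 2 lower at an unadjusted p under 0.05 in polysomal RNA (5.37% and 7.89% of all genes) and 1 higher in total RNA (2.66%). DESeq2 called 0 members as well. STIM1, the calcium sensor of the endoplasmic reticulum, stood at 9.99 and 13.3 CPM in knockdown and 11 and 15.8 CPM in scramble polysomes, and at 44.3 and 47.2 against 44.1 and 45.3 CPM in total RNA. ORAI1, the channel that STIM1 opens, had log2 fold changes of 0.38 in polysomal and 0.40 in total RNA (edgeR adjusted p = 0.36 and 1). The calcium-sensing receptor CASR had at most 3 counts and was not tested.

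Of the other secreted regulators, 32 of 35 listed genes were tested, with 17 above and 14 below 0 in polysomal RNA (median log2 fold change 0.04; 45.9% of all genes above) and 25 above and 7 below in total RNA (median 0.21; 52.8% of all genes above). edgeR called 0 in either fraction, with 4 higher and 4 lower at an unadjusted p under 0.05 in polysomal RNA (5.37% and 7.89% of all genes) and 9 higher in total RNA (2.66%). DESeq2 called 1 higher in polysomal RNA (1.42% of genes called) and 2 in total RNA (0.311%), where VEGFA and ANGPTL4 are again the ones. The polysomal call was TNFRSF11B, the decoy receptor osteoprotegerin, at 18 and 20 CPM in knockdown and 4.55 and 6.36 CPM in scramble libraries, and at 6.38 and 5.6 against 3.44 and 3.7 CPM in total RNA. Both knockdown libraries of TNFRSF11B lay above both scramble libraries in each fraction, as for STC1, while its level was higher in polysomal than in total RNA, unlike that of STC1. Like STC1, 5.68% of all tested genes were higher without overlap in both fractions. THBS1, the matricellular protein thrombospondin, stood at 452.9 ± 42.1 CPM in knockdown and 511.5 ± 128 CPM in scramble polysomes and at 2112 ± 265 against 1233 ± 55.2 CPM in total RNA (SD, n = 2 each).

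**Figure D4:**
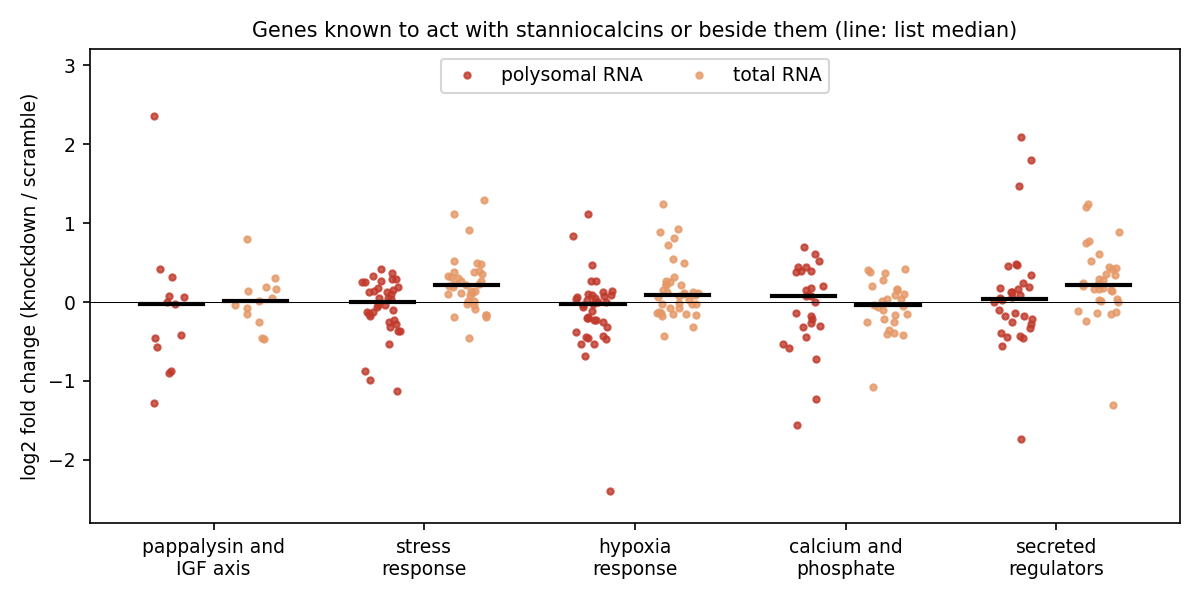
Log2 fold change of knockdown over scramble (vertical axis) for each tested member of 5 gene lists, in polysomal RNA (left of each pair) and total RNA (right); black lines are list medians and horizontal scatter within a column carries no value. The stress list has medians of 0.0013 in polysomal and 0.21 in total RNA, and the secreted regulators 0.04 and 0.21.

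Genes with the profile most like each stanniocalcin were sought by Pearson's r of log2 CPM over the 8 libraries among 11371 other genes with a mean log2 CPM of at least 1. For STC1 they were CHFR (r = 0.991), CAMK1G (0.989), RP11-4O1.2 (0.986), NUMBL (0.984) and ERRFI1 (0.983), all measured in the same 8 libraries. For CHFR, NUMBL and ERRFI1 the gap between fractions in knockdown cells was smaller than that of STC1 in size. The log2 ratios of polysomal to total RNA there were −0.58 for CHFR, −0.57 for NUMBL and −0.44 for ERRFI1, against −1.32 for STC1. With each library centred on its fraction the genes most like STC1 were NUMBL, MOB3A, CAMK1G, VPS26B and HS3ST3B1, with r from 0.979 to 0.985. ERRFI1, a feedback inhibitor of the EGF receptor, stood at 77.1 and 77.3 CPM in knockdown and 62.5 and 53.8 CPM in scramble polysomes. For STC2 they were MARCKS (0.984), ATAD3A (0.979), GTF2H2 (0.978), CSNK1E (0.972) and GFOD1 (0.971), and after centring ALDH1B1, HEXA, APMAP, SPOCD1 and DAW1, with r from 0.981 to 0.986. STC1 and STC2 were not among each other's nearest, with r = 0.443 as measured and −0.237 after centring. An r over 0.95 was reached by 38 genes for STC1 and 11 for STC2 as measured, out of the 11371 compared. The 8 libraries include the polysomal ones whose values chose STC1, so its likeness is a description with no test. For both genes the r values printed are the highest of 11371 over only 8 libraries, and they are high in part through that choice.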

How the data were processed

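The authors deposited whole-number counts per gene symbol for 8 libraries, without normalization. Of tools, the submitters' processing notes list Trimmomatic 0.36, HISAT2 2.1.0, featureCounts, Subread 2.0.1, DESeq2 and R 4.1.2, besides bcl2fastq 2.19.0 and build GRCh38, in no stated order. The annotation, strand setting and handling of multiply matched reads are not given in the sources used here, so strand-blind counting is possible. Polysome isolation is not described either. Groups came from the sample labels. Genes were filtered with filterByExpr, scaled by TMM and fitted with edgeR 4.0.16 (R 4.3.3), using the quasi-likelihood test with robust dispersions, 4 group means and 4 residual degrees of freedom. Benjamini-Hochberg adjustment covered all 16228 tested genes at a threshold of 0.05. An SE is the log2 fold change over the root of F. The prior count for log2 CPM was 2. DESeq2 1.42.0 (Wald test), size factors, library totals, no filter, single-fraction fits, the replicate number as a term and leaving out each library were alternatives. On simulated counts for 16228 genes, with 200 changed by 2 on the log2 scale, 100% were recovered in total RNA with 17 false calls and 99.5% in polysomal RNA with 11. The stanniocalcin changes tested in total RNA were smaller (0.60 and 0.39), and recovery of changes of that size was not tested. Leaders came from the GENCODE 29 transcript with the longest coding sequence. The genes, lists and tests were chosen with earlier results of these data known. The named genes are the stanniocalcins, EIF4G2, 8 partners picked by name, the 4 list members with the smallest p in total RNA or the largest polysomal fold change (mean log2 CPM of at least 2), and the 5 most alike genes; not all are printed, and untested list members named by count fall outside the rule.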

Additional observations from a re-analysis of the deposited data

Results flagged for a closer look

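In 6 of 58 tested genes that the naming rule took, both knockdown libraries lay on one side of both scramble libraries in total RNA and on the opposite side in polysomal RNA, and the difference was not tested. The same held for 12 of 142 tested list members (8.45%) and for 878 of all 16228 tested genes (5.41%). The 6 of 58 come to 10.3%. The naming rule took list members by a small p in total RNA or a large polysomal fold change. That choice may raise the 10.3%, which is not read as an excess over all genes. The differences of polysomal and total log2 fold changes were 0.80 for the phosphate exporter XPR1, 1.03 for the calcium release channel ITPR3, −0.61 for the prolyl hydroxylase P4HA2, −0.84 for the activin antagonist FSTL3, −1.15 for CHAC1 and −0.53 for PHGDH. STC1 and STC2 did not meet this rule, as STC1 was higher in both fractions and the polysomal libraries of STC2 overlapped.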

How the results depend on the processing

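Of 359 recomputed values 7 lost a call, 4 gained one and 48 moved. Fold changes and list medians counted as moved past the spread between replicates, and numbers of called genes past a set factor. A sign changed in 12, none of them a called value: STC2 in polysomal RNA and in polysomes over total RNA of scramble cells, and the medians of 3 lists; the stress list's polysomal median, 0.0013, also changed sign. The settings use fewer samples, other genes or other scaling, and the cause of the sign changes was not tested. DESeq2 called 221 genes in polysomal RNA, 26 in total RNA and 4 in the ratio, and EIF4G2 in total RNA (−1.36). With library totals STC1 in polysomes over total RNA was −2.39 in knockdown and −3.74 in scramble cells, STC2 −1.15 in scramble cells (called), and 1 gene was called in polysomal RNA. Under those totals the list medians were −0.03 (pappalysin and IGF), 0.05 (hypoxia) and 0.18 (secreted) in total RNA, and −0.09 (stress), −0.12 (hypoxia) and −0.02 (calcium and phosphate) in polysomal RNA. Without a filter on low counts 502, 38 and 64 genes were called in polysomal RNA, total RNA and the ratio, EIF4G2 in total RNA was −1.37 (called) and STC1 in polysomes over total RNA of knockdown cells −1.51. With 1 fraction alone 10 genes were called in total RNA, EIF4G2 (−1.36) among them. Over all tested genes, the differences between replicates correlated from −0.092 to 0.026 between groups, so no pairing by replicate number showed. Such values cannot tell whether libraries share cultures. The replicate block left STC1 at 0.60 and STC2 at 0.39 in total RNA and changed no call of the stanniocalcins or EIF4G2.

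Leaving out 1 library in turn gave these ranges. In total RNA STC1 ran from 0.47 to 0.71 and STC2 from 0.36 to 0.41, and in polysomal RNA STC1 from 1.77 to 2.2 and STC2 from −0.57 to 0.05. The ratio difference ran from 1.19 to 1.62 for STC1 and −0.94 to −0.32 for STC2. Polysomes over total RNA ran from −1.47 to −1.23 for STC1 and −1.16 to −0.65 for STC2 in knockdown cells, and from −3.06 to −2.62 for STC1 and −0.56 to 0.05 for STC2 in scramble cells. EIF4G2 ran from −1.43 to −1.27 in total RNA and from −1.91 to −1.42 in polysomal RNA, with edgeR adjusted p up to 0.224; its polysomal call was lost without knockdown total replicate 1 (0.207) or 2 (0.224), knockdown polysome replicate 1 (0.131) and scramble polysome replicate 1 (0.102) or 2 (0.107). Genes called ran from 0 to 183 in polysomal RNA, the highest without knockdown polysome replicate 2, from 0 to 2 in the ratio and stayed at 0 in total RNA. Medians in total RNA ran from −0.04 to 0.07 (pappalysin and IGF), 0.15 to 0.27 (stress), 0.01 to 0.09 (hypoxia), −0.11 to −0.01 (calcium and phosphate) and 0.17 to 0.25 (secreted). In polysomal RNA they ran from −0.43 to −0.03, −0.15 to 0.04, −0.18 to −0.03, −0.19 to 0.07 and −0.16 to 0.04 in the same order of lists, so their sign is not fixed for the last 2 and the stress list. Depth limits PAPPA, with 0 to 36 counts a library, and list members too low to test.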
